A study of Mus musculus with 5 samples.

Results

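Chemokines are small secreted proteins that guide cells along gradients, and their receptors are mostly carried by leukocytes. The genes described here are the chemokines and chemokine receptors of the mouse oviduct (fallopian tube) stroma, taken as every listed gene whose symbol is a Cxcl, Ccl, Cx3cl, Xcl, Cxcr, Ccr, Cx3cr, Xcr or Ackr name with a number. The rule uses names alone and gave 61 of the 23857 listed genes. They comprise 39 ligands (24 of the CC, 13 of the CXC and 2 of other kinds), 18 signalling receptors and 4 atypical receptors.

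Stromal cells were sorted by their YFP from the oviducts of 5 young adult females, and their RNA was sequenced in bulk with 1 library per mouse. Control mice 2 and 3 had Pdgfra-Cre together with R26Y, a YFP reporter, and are labelled wild-type. Mice 1, 2 and 3 of the other group carried Pdgfra-Cre, R26Y and floxed alleles on both copies of Esr1 (Esr1 fl/fl), the gene of estrogen receptor alpha, and are called knockout here after their label. Cre under the Pdgfra promoter, which is active in mesenchymal cells, deletes the floxed sequence and switches on YFP, so both groups carry the recombinase and the reporter.

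Ligands divide by the position of conserved cysteines into CC, CXC, CX3C and XC types, and receptors of the same letters signal through inhibitory G proteins. Atypical receptors (Ackr genes) bind chemokines without such signalling and remove or transport them. Homeostatic chemokines such as Cxcl12 are made steadily by fibroblasts and other stromal cells, whereas inflammatory ones such as Cxcl1 and Ccl2 are induced through NF-kappaB in fibroblasts and macrophages alike. In the female tract these signals place macrophages, dendritic cells, lymphocytes and neutrophils in the mucosa. To tell stromal from leukocyte-type members, each gene was put in a class by its textbook main source, 11 as stromal-type, 33 as leukocyte-type, 3 as interferon-inducible, 7 as epithelial-type and 7 as endothelial-type. Many have more than 1 source, so the class is a label and not a measurement of the cell of origin.

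Values are TPM, a transcript abundance scaled to gene length and to the same total in every library. Levels of Esr1 were 83.3 and 77.6 TPM in control mice 2 and 3 and 28.9, 85.0 and 169.9 TPM in the knockout mice 1, 2 and 3, so that only mouse 1 lay below the controls. The groups are therefore those of the labels and are not separated by Esr1. Which part of the gene is floxed is not given in the sources used here, so these values may hold reads from outside it and do not show how far the deletion went. Stromal genes were abundant in all libraries, with Dcn, a fibroblast proteoglycan, at 6764 to 10110.4 TPM. Their level was not even across the groups. The 6 stromal markers summed to 19450 and 15863 TPM in the controls and to 13619, 10135 and 11426 TPM in knockout mice 1, 2 and 3. Leukocyte markers were also present: none of the 12 was at 0, and their summed level was 1419 and 1446 TPM in the controls and 1199.9, 778 and 374 TPM in knockout mice 1, 2 and 3. The 7 epithelial markers summed to 2709 and 3028 TPM in the controls and to 1974, 11640.0 and 12515 TPM in the knockout mice, and Ovgp1, the oviductal glycoprotein, made up most of that. Read depth behind 1 TPM, estimated from the steps of low values, was 48.5% to 83.0% of that of control mouse 2 in the other libraries, and 1 TPM in a transcript of 1 kb stood for about 6.38 to 13.2 reads.

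Of the 61 members, 51 reached 1 TPM in at least 2 libraries and were tested, and 33 had a mean of at least 5 TPM. The 10 that were not tested were Ccr9, Cxcl15, Ccl20, Cxcl5 and Ccl19, all with a mean under 1 TPM, and 5 members listed at 0 in every library. By their mean in controls, Cxcl2, Cxcl1, Ccl6 and Cxcl12 were highest, at 185, 159.5, 139 and 129 TPM. Among the libraries labelled knockout the order was Cxcl12, Cxcl14, Cxcr4 and Ccl6, at 187, 79.9, 66.8 and 54.6 TPM, and Cxcl2 stood at place 13. Within the controls the leading 3 are not separated, since the SD of Cxcl2 was 84.2 and that of Cxcl1 71.0 TPM over 2 mice.

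**Figure D1:**
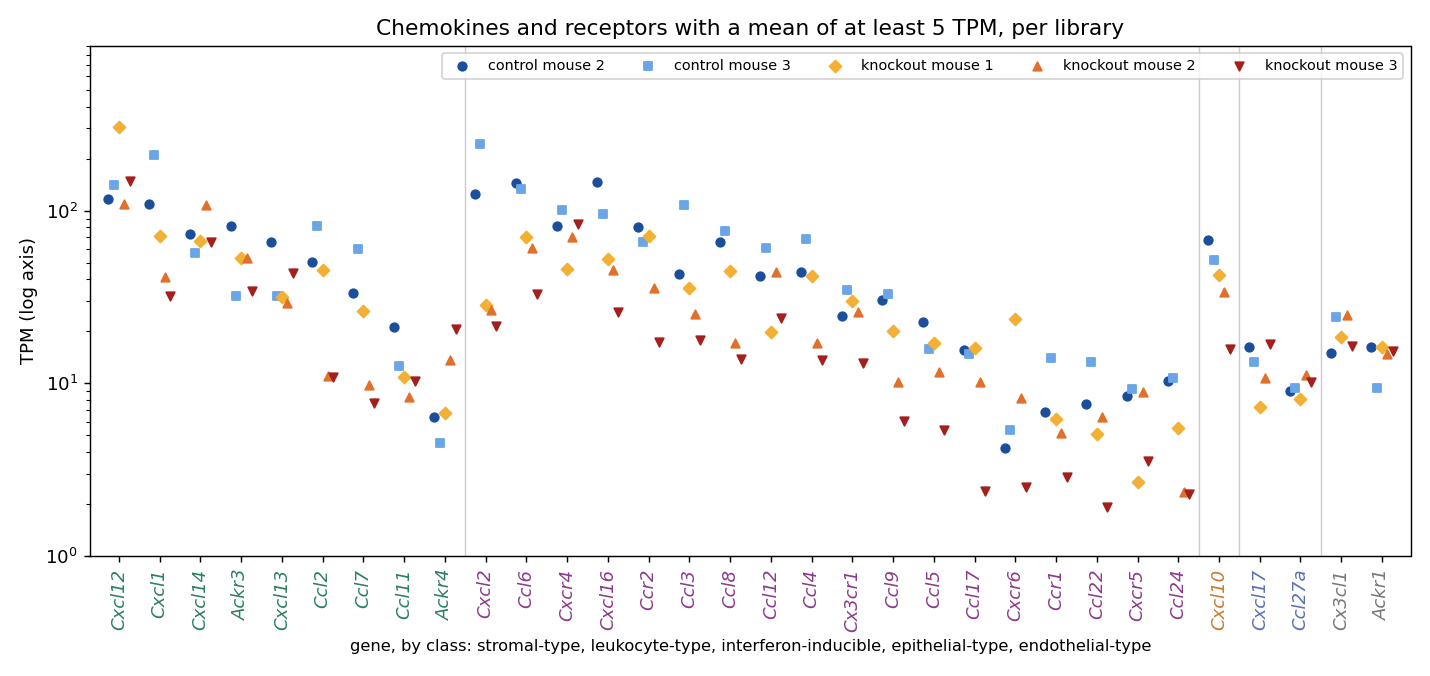
TPM on a log axis of 32 of the 33 members with a mean of at least 5 TPM, 1 point per library, with gene names grouped and coloured by class (stromal-type, leukocyte-type, interferon-inducible, epithelial-type, endothelial-type from left to right). Most leukocyte-type genes have their lowest point in knockout mouse 3, while Cxcl12, Cxcl14 and Ackr1 do not separate by genotype.

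The comparison between genotypes asked which members differ between the libraries labelled knockout and those labelled wild-type. In the limma fit on log2(TPM + 1) over all 19292 tested genes, 0 of 51 members had an adjusted p under 0.05, against 0.0156% of all genes called lower and 0.0104% called higher. At an unadjusted p under 0.05 there were 16 lower members and 1 higher, which is 31.4% of the tested members for the lower ones, where 9.87% of all tested genes were lower and 3.70% higher. In 19 members (37.3%) all 3 knockout libraries lay below both controls, against 21.9% of all genes, and in 1 tested member, Ackr4, all 3 lay above, against 11.9%. The median log2 fold change of the tested members was -0.57 (-0.37 without knockout mouse 3), beside -0.022 over all genes, and 42 of them were lower, where 52.2% of all genes were. Below both controls lay 30 members in knockout mouse 1, 31 in mouse 2 and 39 in mouse 3, where 53.9%, 32.6% and 44.3% of all genes did. With knockout mouse 1 left out, the only library with Esr1 below the controls, 11 members passed as lower and 1 as higher in limma, where 2.63% of all genes passed as lower and 5.35% as higher. They were Cxcl1, Cxcl2, Cxcl16, Ccl2, Ccl4, Ccl6, Ccl7, Ccl8, Ccl9, Ccl24 and Ccr2, and Ackr4. With limma's weights for the libraries 10 members passed as lower, the same list less Ccr2, and 0 as higher, where 2.05% and 1.35% of all genes did. Members share the 5 libraries and are not replicates of one another.

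**Figure D2:**
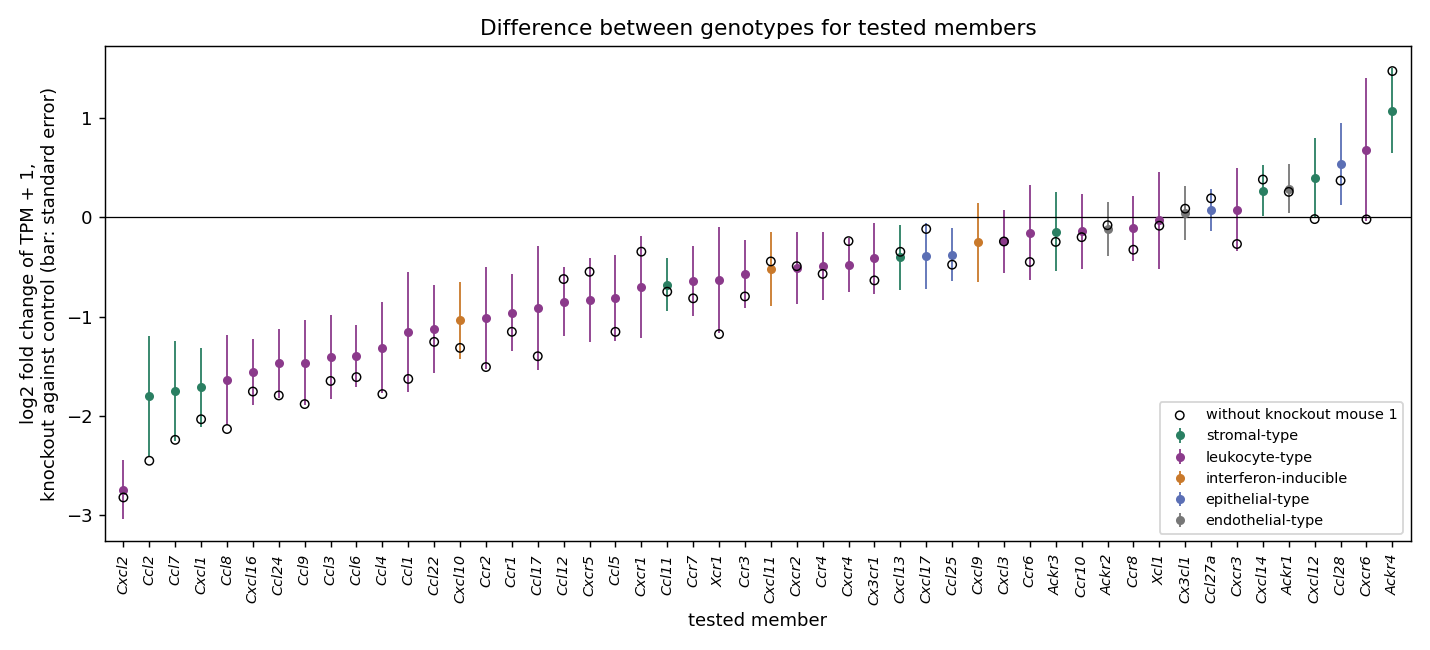
Log2 fold change of TPM + 1, knockout against control, for 50 of the 51 tested members in order of size, coloured by class. Filled points and bars are the limma estimate and its standard error over 5 libraries, and open circles the estimate without knockout mouse 1 (Cxcl9 has none, since it was under the filter there). Cxcl2 lies lowest at -2.74 and Ackr4 highest at 1.07.

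Cxcl12, the homeostatic ligand that retains and recruits Cxcr4-bearing cells, measured 117 and 141 TPM in control mice 2 and 3, against 304, 109 and 148 TPM in the knockout mice 1, 2 and 3. Knockout mouse 1 stood far above the rest, and the other 4 libraries lay within 109 to 148 TPM. On the log2 scale the difference of 0.40 (its standard error 0.40, limma adjusted p 0.648, exact permutation p 0.8) became -0.016 without that mouse. Its signalling receptor Cxcr4 measured 81.7 and 101 TPM in controls and 46.2, 70.6 and 83.6 TPM in knockout mice, lowest in the library where Cxcl12 was highest. Knockout mouse 3 lay between the controls for Cxcr4, so the groups overlapped (log2 fold change -0.48, limma adjusted p 0.454, exact permutation p 0.3). Ackr3, the atypical receptor that takes up Cxcl12, measured 81.0 and 31.8 TPM in controls and 53.1, 53.4 and 34.2 TPM in knockout mice. The controls alone spanned more than the 3 knockout libraries, and the difference was within its error (log2 fold change -0.14, standard error 0.40, limma adjusted p 0.876, exact permutation p 1). Without control mouse 2 it was 0.52, and without control mouse 3 it was -0.80. The ratio of Cxcl12 to Cxcr4 was 1.44 and 1.40 in the controls, 1.55 and 1.78 in knockout mice 2 and 3, and 6.58 in knockout mouse 1.

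Cxcl14, a homeostatic chemokine of fibroblasts and epithelia, measured 73.3 and 56.5 TPM in controls and 66.4, 107 and 66.1 TPM in knockout mice. Knockout mouse 2 was high and the other knockout libraries lay between the controls (log2 fold change 0.27, standard error 0.26, limma adjusted p 0.632, exact permutation p 0.6). Cxcl13, which draws B cells through Cxcr5 and is made by specialised stroma and macrophages, measured 65.7 and 31.8 TPM in controls and 31.8, 29.3 and 43.7 TPM in knockout mice. Control mouse 2 was the high library, and control mouse 3 fell within the range of the knockout mice. Its log2 fold change of -0.40 (limma adjusted p 0.576) was 0.11 without control mouse 2 and -0.91 without control mouse 3. Ccl19, the Ccr7 ligand of lymphoid stroma, was listed at 0 in 4 libraries and at 0.37 TPM in knockout mouse 1, and Cxcl5, a neutrophil attractant under the filter, was at 0.265 and 0.285 TPM in controls and 0.471, 0.641 and 0.846 TPM in knockout mice, above the controls in all 3.

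**Figure D3:**
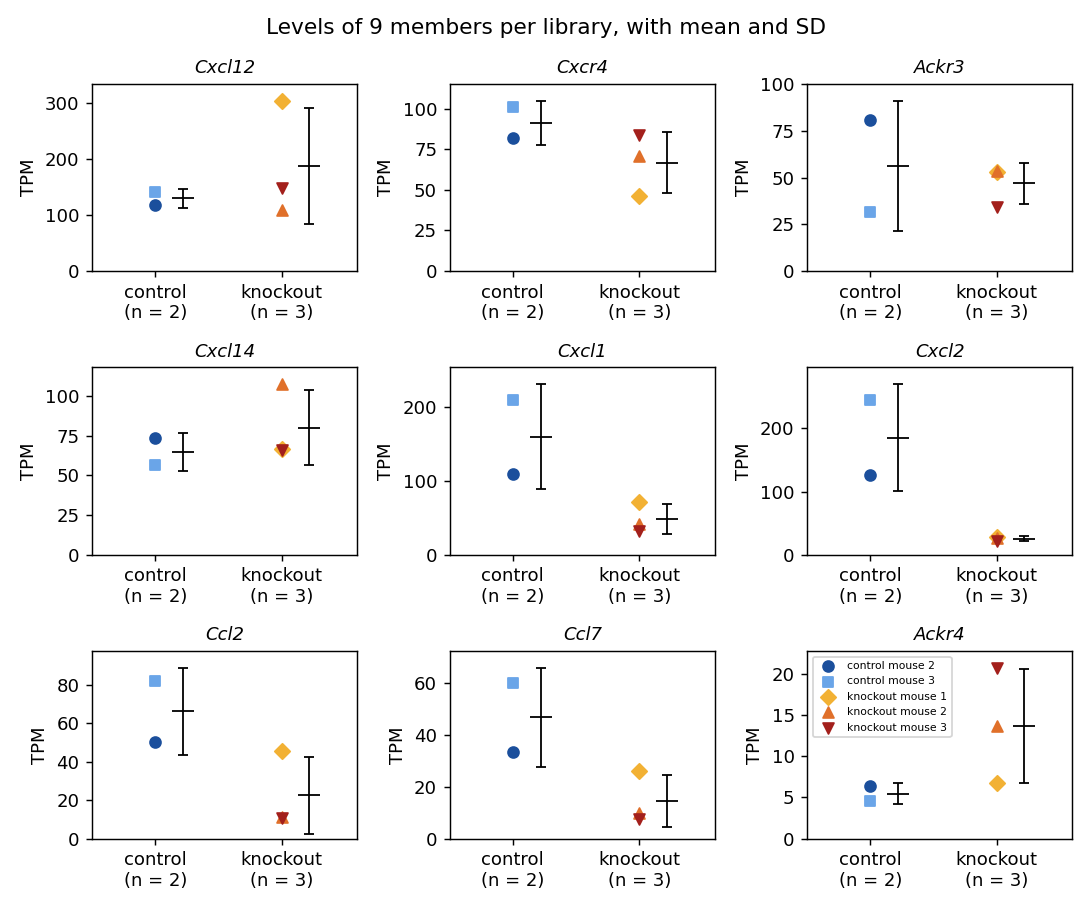
TPM of 9 members on linear axes starting at 0, with 1 point per library and the mean and SD of each group beside the points (n = 2 controls, n = 3 knockout mice). Cxcl2 shows the widest gap between groups, Ackr4 is above the controls, and Cxcl12 and Cxcr4 overlap.

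Cxcl1 and Cxcl2 attract neutrophils through Cxcr2 and are induced within hours of an inflammatory signal. Cxcl2 measured 126 and 245 TPM in control mice 2 and 3, against 28.5, 26.6 and 21.5 TPM in the knockout mice 1, 2 and 3. All 3 knockout libraries lay close together and far below the controls, which differed from each other by more than the lower one did from any knockout mouse. Controls averaged 185 ± 84.2 TPM (SD, n = 2), 7.25 times the 25.5 ± 3.59 TPM (SD, n = 3) of the knockout mice (log2 fold change -2.74, standard error 0.29, limma adjusted p 0.0666), and without knockout mouse 1 the log2 fold change was -2.82 (limma adjusted p 0.014). Cxcl1 measured 109 and 209.8 TPM in controls and 71.5, 41.1 and 31.9 TPM in knockout mice, again without overlap and again highest in control mouse 3. On the log2 scale the difference of -1.71 (its standard error 0.39, limma adjusted p 0.193) became -2.03 without knockout mouse 1 (limma adjusted p 0.0246). The ratio of Cxcl1 to Cxcl2 was 0.870 and 0.857 in the controls and 2.51, 1.54 and 1.48 in knockout mice 1, 2 and 3. Cxcl3, the third gene of this group, was at 0.528 to 1.49 TPM, and its transcript matched that of Cxcl2 at 90.3% of 351 aligned bases, so reads of the pair may have been split. Their receptor Cxcr2, a neutrophil gene, measured 1.84 and 2.37 TPM in controls and 1.13, 2.11 and 0.56 TPM in knockout mice.

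The regions before the starts of Cxcl1, Cxcl2, Cxcl10 and Cxcl12 are shown as examples of ligands with and without a motif match, picked with both their values and their matches known. Sequences are from RefSeq (GRCm38.p6), are written 5′ to 3′ on the strand of the gene, and cover bases 110 to 1 before the start, or a stretch farther out for Cxcl10. Capitals mark matches on either strand to the NF-kappaB site (the kappaB motif) or to the core of the interferon-stimulated response element, GAAA and GAAA with NN between.
Cxcl1 (chr5:90891135-90891244, plus strand): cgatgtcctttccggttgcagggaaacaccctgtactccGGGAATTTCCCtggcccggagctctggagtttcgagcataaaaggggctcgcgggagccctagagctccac
Cxcl2 (chr5:90903789-90903898, plus strand): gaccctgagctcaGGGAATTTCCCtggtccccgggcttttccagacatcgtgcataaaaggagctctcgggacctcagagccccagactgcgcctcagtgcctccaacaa
Cxcl10 (chr5:92348980-92349114, minus strand): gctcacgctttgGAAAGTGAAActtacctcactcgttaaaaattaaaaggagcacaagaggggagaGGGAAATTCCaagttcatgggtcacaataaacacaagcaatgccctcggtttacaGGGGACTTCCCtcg
Cxcl12 (chr6:117168425-117168534, plus strand): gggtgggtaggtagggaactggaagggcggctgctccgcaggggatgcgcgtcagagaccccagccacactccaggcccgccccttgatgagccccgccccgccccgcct
Cxcl1 and Cxcl2 hold the same capitalised run, an overlapping pair of kappaB matches, 71 to 61 bases before the start in Cxcl1 and 97 to 87 in Cxcl2. Cxcl10 holds 1 kappaB match, an overlapping pair of them nearer the start and, farthest out, the interferon element. No letters of the Cxcl12 window are capitalised. The 46 members in the promoter table have 53 windows of the 250 bases before a start. A kappaB match was in 11 of the 53, where 7.25% of all 32851 windows of that length had one. The 11 windows belong to 11 members. These were Cxcl1, Cxcl2, Cxcl3, Cxcl10, Ccl1, Ccl9, Ccl20, Ccr1, Ccr3, Ccr6 and Ackr2. Of these, Cxcl1, Cxcl2, Cxcl10, Ccl9, Ccr1 and Ccr3 were below both controls in every knockout library, as were 37.3% of all tested members. Cxcl3, Ccl1, Ccr6 and Ackr2 have a match and overlapped, and Ccl20 was not tested. Ccl3, Ccl6, Ccl8, Ccl22, Ccl25 and Ccr4 have none in the table and were also below both controls in every knockout library. A relation between matches and the difference between genotypes was not tested. The interferon element was in the windows of Cxcl10, Cxcl14 and Ccl19 and in 2.98% of all windows. The palindromic estrogen response element, GGTCA and TGACC with NNN between, was in no member window and in 0.0639% of all windows, which says only that these letters are not in this stretch. A match is a description of the sequence and not evidence of binding.

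Ccl2, Ccl7 and Ccl12 attract monocytes, mainly through Ccr2, and Ccl11 attracts eosinophils through Ccr3. With Ccl8 and Ccl1 they form a cluster on chromosome 11, from Ccl2 (start 82035577) to Ccl1 (end 82179812) in GRCm38.p6. That RefSeq build corresponds to the mm10 named by the submitters. Ccl2 measured 50.3 and 82.0 TPM in controls and 45.5, 11 and 10.8 TPM in knockout mice. Knockout mouse 1 lay just under control mouse 2, and mice 2 and 3 lay far below (log2 fold change -1.80, standard error 0.60, limma adjusted p 0.303, exact permutation p 0.2). Without knockout mouse 1 it was -2.45 (limma adjusted p 0.014). Ccl7 had the same order of libraries, 33.3 and 60.1 TPM in the controls and 26.2, 9.80 and 7.68 TPM in the knockout mice, and its ratio to Ccl2 varied little, with Ccl2 over Ccl7 at 1.12 to 1.74 in all 5 libraries. The log2 fold change of Ccl7 was -1.74 (limma adjusted p 0.243) and -2.24 without knockout mouse 1 (limma adjusted p 0.0183). Ccl8 measured 65.7 and 76.0 TPM in controls and 44.5, 17.1 and 13.7 TPM in knockout mice, with no overlap (log2 fold change -1.64, limma adjusted p 0.233). Without knockout mouse 1 it was -2.13 (limma adjusted p 0.0132). Ccl12 departed from its neighbours. It measured 41.9 and 60.4 TPM in controls and 19.8, 43.9 and 23.8 TPM in knockout mice, lowest in mouse 1 and between the controls in mouse 2 (log2 fold change -0.85, limma adjusted p 0.359). Ccl11 measured 21.1 and 12.5 TPM in controls and 10.9, 8.38 and 10.3 TPM in knockout mice, a small gap with no overlap (log2 fold change -0.68, limma adjusted p 0.348, exact permutation p 0.1, the smallest that 10 assignments can give). All 6 genes of the cluster had a negative log2 fold change, 4 of them without overlap, where 52.2% and 21.9% of all tested genes did.

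A second cluster on chromosome 11, from Ccl5 (start 83525778) to Ccl4 (end 83664683), holds ligands of macrophages and lymphocytes. Ccl6, a macrophage and myeloid ligand of Ccr1, measured 145 and 133 TPM in controls and 70.2, 60.4 and 33.1 TPM in knockout mice. The controls were close to each other and no library overlapped (log2 fold change -1.40, standard error 0.31, limma adjusted p 0.192). Its neighbour Ccl9, which also binds Ccr1, measured 30.5 and 32.9 TPM in controls and 20.2, 10.2 and 6.04 TPM in knockout mice (log2 fold change -1.46, limma adjusted p 0.25). Both passed without knockout mouse 1, at -1.61 and -1.88 (limma adjusted p 0.0294 and 0.0184). Ccl3 and Ccl4, inflammatory ligands made by activated macrophages and lymphocytes, were both highest in control mouse 3. Ccl3 measured 43.1 and 109 TPM in controls and 35.6, 25.2 and 17.8 TPM in knockout mice (log2 fold change -1.41, limma adjusted p 0.265), and the distance between the controls exceeded that from control mouse 2 to any knockout library. Values for Ccl4 were 44.2 and 68.3 TPM in controls and 42.0, 17.2 and 13.6 TPM in knockout mice (log2 fold change -1.31, limma adjusted p 0.317), with knockout mouse 1 just under control mouse 2. Ccl5, a ligand of T cells and NK cells, measured 22.6 and 15.7 TPM in controls and 17.1, 11.6 and 5.37 TPM in knockout mice and overlapped between the groups (log2 fold change -0.81, limma adjusted p 0.437). All 5 genes of this cluster were lowest in knockout mouse 3, where 29.3% of all tested genes were.

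Among leukocyte-type ligands elsewhere in the genome, Cxcl16, a membrane-bound ligand of Cxcr6 on macrophages, measured 146 and 95.7 TPM in controls and 52.5, 45.3 and 26 TPM in knockout mice. No library overlapped, and control mouse 2 was the higher control (log2 fold change -1.56, standard error 0.33, limma adjusted p 0.187). Without knockout mouse 1 it was -1.75 (limma adjusted p 0.031). Ccl24, an eosinophil attractant of tissue macrophages, measured 10.3 and 10.7 TPM in controls and 5.53, 2.36 and 2.29 TPM in knockout mice (log2 fold change -1.47, limma adjusted p 0.197). In the fit without knockout mouse 1 its value was -1.79 (limma adjusted p 0.017). Ccl17 and Ccl22 are the dendritic cell ligands of Ccr4. Ccl17 measured 15.6 and 14.9 TPM in controls and 16.1, 10.2 and 2.37 TPM in knockout mice, with mouse 1 above both controls and mouse 3 far below (log2 fold change -0.91, limma adjusted p 0.524). Ccl22 measured 7.62 and 13.3 TPM in controls and 5.07, 6.42 and 1.92 TPM in knockout mice, all below the controls (log2 fold change -1.13, limma adjusted p 0.348). Ccl1 and Xcl1, ligands of activated lymphocytes, stayed under 6 TPM in every library.

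Receptors of leukocytes differed less between the groups than the leukocyte-type ligands did in the median, -0.51 over 17 tested receptors and -1.31 over 15 ligands on the log2 scale, and that difference was not tested. The scale of log2(TPM + 1) understates changes of low genes, and several of these receptors were low. For Ccr3 and Ccr4 the knockout mean was 0.498 and 0.523 of the control mean, while the log2 fold changes were -0.57 and -0.49. The part of the scale in the gap between receptors and ligands was not tested. Ccr2, the monocyte receptor for Ccl2, measured 80.2 and 66.2 TPM in controls and 71.4, 35.8 and 17.3 TPM in knockout mice. Knockout mouse 1 lay between the controls and mice 2 and 3 below both (log2 fold change -1.01, limma adjusted p 0.423), and without mouse 1 it passed at -1.51 (limma adjusted p 0.0453). Without mouse 3 instead it was -0.52 (limma adjusted p 0.707). Ccr1 measured 6.79 and 14.0 TPM in controls and 6.25, 5.12 and 2.85 TPM in knockout mice, below both controls in all 3 (log2 fold change -0.96, limma adjusted p 0.355).

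Cx3cr1, the fractalkine receptor of resident macrophages, measured 24.6 and 34.7 TPM in controls and 29.9, 25.8 and 13.1 TPM in knockout mice, with knockout mice 1 and 2 between the controls (log2 fold change -0.41, limma adjusted p 0.597). Ccr7, which brings dendritic cells to lymph nodes, was at 4.79 and 7.80 TPM in controls and 4.83, 4.23 and 2.15 TPM in knockout mice (log2 fold change -0.64, limma adjusted p 0.445). Lymphocyte receptors had other orders. Cxcr6, a receptor of tissue T and NKT cells, measured 4.20 and 5.39 TPM in controls and 23.5, 8.23 and 2.5 TPM in knockout mice, highest in mouse 1, where the T cell gene Cd3e was also highest at 35.9 TPM against 2.57 to 17.2 TPM elsewhere. Its log2 fold change of 0.68 was -0.02 without that mouse. Cxcr3, of effector T cells, was likewise highest in mouse 1, at 2.55 and 3.24 TPM in the controls and 5.60, 3.13 and 1.52 TPM in the knockout mice. Cxcr5, the B cell receptor for Cxcl13, measured 8.38 and 9.28 TPM in controls and 2.69, 8.93 and 3.55 TPM in knockout mice, low in mice 1 and 3, which were also the lowest for the B cell gene Cd79a at 18.6 and 16.5 TPM against 39.0 to 41.5 TPM elsewhere. None of these 3 passed (limma adjusted p 0.665, 0.939 and 0.424). The part of the lymphoid cells in these values was not tested. Xcr1, the receptor of cross-presenting dendritic cells, measured 2.69 and 3.27 TPM in controls and 4.51, 0.872 and 0.649 TPM in knockout mice. Ccr3, Ccr4, Ccr6, Ccr8, Ccr9, Ccr10, Cxcr1 and Cxcr2 were under 3 TPM in every library.

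Left-out libraries moved several of these differences by over 1.5 times. Without knockout mouse 3 the log2 fold change was -0.23 for Ccl17, -0.071 for Cx3cr1, -0.40 for Ccl5, -0.73 for Ccl22, -0.37 for Ccr7 and -0.64 for Cxcl10. Without control mouse 3 it was -0.75 for Ccl3, -0.49 for Ccr1, -0.34 for Ccr7 and -1.03 for Ccl11, and without control mouse 2 it was -0.32 for Ccl11. Leaving out knockout mouse 1 gave -0.24 for Cxcr4, -0.12 for Cxcl17, -0.55 for Cxcr5 and -1.40 for Ccl17, and without knockout mouse 2 it was 0.041 for Cxcl14, 0.72 for Cxcl12 and -1.26 for Cxcr5. None of these values passed the adjusted threshold.

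Levels of the leukocyte-type members were set beside those of the 12 leukocyte markers, since sorted stromal fractions can hold other cells and in bulk RNA fewer cells of a type and less RNA per cell cannot be told apart. The median over the markers was -0.96 on the log2 scale, with 11 of 12 lower and 8 of them below both controls in all 3 knockout libraries. Over all tested genes, 52.2% were lower and 21.9% lay below both controls in all 3. Of the 32 tested leukocyte-type members, 30 were lower, 13 without overlap, and 27 had their lowest value in knockout mouse 3, as did 11 of the 12 markers, where 29.3% of all tested genes were lowest there. That library also had the fewest genes at 1 TPM or more (15841, against 17148 to 19432 in the others) and the most listed at 0 (2455, against 1144 to 1593), and the part of this in the result was not tested. The median of the leukocyte-type members was -0.76, and -0.46 without that library. Within the range of the markers, -1.93 (Cpa3, a mast cell protease) to 0.089 (Cd3e), lay 30 of the 32. Cxcl2 was the only one of them below that range and Cxcr6 the only one above. The part of leukocyte number in these values was not tested.

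Dividing each level by that of Ptprc, the pan-leukocyte gene CD45, in the same library was added after the data were seen. Ptprc itself measured 54.6 and 50.8 TPM in controls and 46.6, 30.4 and 15.6 TPM in knockout mice. Relative to it, 6 of the 32 leukocyte-type members were below both controls in all 3 knockout libraries, where 3.47% of all tested genes were, and 4 were above both, where 36.9% of all genes were. Since Ptprc was itself lower in the knockout libraries, the ratio of any gene is shifted upward there. Of the 11 other leukocyte markers 1, Tyrobp, was below both controls by this ratio. The 6 members below both controls were all ligands: Cxcl2, Cxcl16, Ccl6, Ccl8, Ccl9 and Ccl24. The ratio of Cxcl2 to Ptprc was 2.30 and 4.81 in the controls and 0.611, 0.875 and 1.38 in knockout mice 1, 2 and 3. For Ccr2 the ratio ranged from 1.11 to 1.53 over the 5 libraries and overlapped between the groups. Among stromal-type members Ccl7 was also below both controls, at a ratio of 0.609 and 1.18 in the controls and 0.563, 0.322 and 0.493 in the knockout mice. Cxcl1 overlapped when divided by Ptprc, at 2.00 and 4.13 in the controls and 1.54, 1.35 and 2.05 in the knockout mice.

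**Figure D4:**
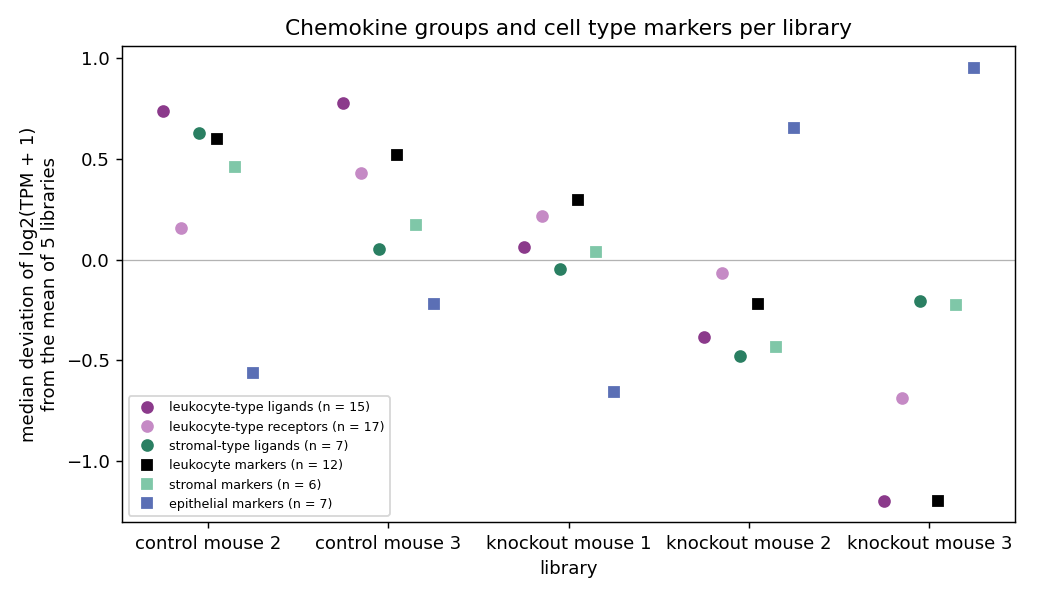
Median deviation of log2(TPM + 1) from each gene's mean over the 5 libraries, for 3 groups of chemokine genes (circles) and 3 lists of cell type markers (squares), by library. Leukocyte-type ligands and leukocyte markers are both lowest in knockout mouse 3, at -1.20, while epithelial markers are highest there, at 0.95.

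The 9 tested stromal-type members had a median log2 fold change of -0.40, with 6 lower and 3 higher, beside a median of -0.51 for the 6 stromal markers. The direction of that median rested on the controls: without control mouse 2 it was 0.11, and without control mouse 3 it was -0.91. The class split into inflammatory ligands (Cxcl1, Ccl2, Ccl7 and Ccl11), all below both controls in each knockout library, and Cxcl12, Cxcl14, Cxcl13 and Ackr3, which all overlapped. That split was drawn after the values were seen. Over all tested genes, 52.2% were lower and 21.9% lay below both controls in all 3 knockout libraries.

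Ackr4, the atypical receptor that scavenges the Ccr7 ligands Ccl19 and Ccl21, was the only tested member above both controls in every library labelled knockout. It measured 6.41 and 4.53 TPM in controls and 6.72, 13.6 and 20.7 TPM in knockout mice. Knockout mouse 1 lay just above control mouse 2, and mice 2 and 3 were well above (log2 fold change 1.07, standard error 0.43, limma adjusted p 0.353). Without knockout mouse 1 it passed at 1.48 (limma adjusted p 0.0338). Epithelial markers were also highest in knockout mice 2 and 3, and their part in the Ackr4 values was not tested. Ackr1, the erythroid and venous atypical receptor, measured 16.2 and 9.40 TPM in controls and 16.1, 14.7 and 15.3 TPM in knockout mice, control mouse 3 being the low library (log2 fold change 0.29, limma adjusted p 0.597). Ackr2, which degrades inflammatory CC ligands, stayed at 2.10 to 3.47 TPM (log2 fold change -0.12, limma adjusted p 0.854, and 0.24 on the log2 scale after quantile normalization).

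Cxcl10, the interferon-inducible ligand of Cxcr3, measured 67.4 and 52.0 TPM in controls and 42.1, 33.8 and 15.8 TPM in knockout mice. All 3 knockout libraries lay below both controls (log2 fold change -1.04, standard error 0.39, limma adjusted p 0.341). Cxcl9 and Cxcl11, which share that receptor, were much lower, at 0.622 to 2.22 TPM and 0.234 to 1.54 TPM, and overlapped between the groups. Among epithelial-type ligands, Cxcl17, a mucosal chemokine, measured 16.3 and 13.2 TPM in controls and 7.26, 10.7 and 16.8 TPM in knockout mice, lowest in mouse 1 (log2 fold change -0.39, limma adjusted p 0.597). Ccl27a measured 9.04 and 9.42 TPM in controls and 8.14, 11.2 and 10.2 TPM in knockout mice, one of the narrowest ranges of the family. Ccl28, of mucosal epithelia, was at 2.31 and 3.57 TPM in controls and 6.10, 6.66 and 2.30 TPM in knockout mice and so did not follow the order of the epithelial markers, being low in knockout mouse 3. Ccl25, the thymic and gut ligand of Ccr9, was at 5.89 and 4.74 TPM in controls and 4.57, 2.86 and 4.30 TPM in knockout mice. Cx3cl1, the membrane-bound fractalkine of endothelium and epithelium, measured 15.0 and 24.2 TPM in controls and 18.6, 24.9 and 16.5 TPM in knockout mice, overlapping between the groups (log2 fold change 0.047, standard error 0.27, limma adjusted p 0.941). A p above the threshold does not show that Cx3cl1 was equal in the groups, and its log2 fold change turned to -0.033 after quantile normalization, to -0.28 without control mouse 2 and to -0.11 with knockout mouse 2 left out.

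The 5 members listed at 0 throughout were Ccl21a, Ccl21b, Ccl21c, Ccl21d and Ccl27b. Ccl21 is the lymphatic ligand of Ccr7. All belong to sets of near-identical copies: the best aligned transcripts of Ccl21a and Ccl21b in GENCODE M21 matched at 99.5% of 402 bases, and those of Ccl27a and Ccl27b at 99.3% of 425 bases. Lyve1 and Prox1, genes of lymphatic endothelium, were at 21.8 to 35.7 TPM and 2.93 to 8.90 TPM in the same libraries. How the authors' counting treated reads that match several copies is not given in the sources used here, so these zeros are not read as absence and Ccl27a may hold reads of its copy.

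Genes around the family were taken from 3 lists. Of 9 related chemokine-system genes none passed the adjusted threshold in limma (5 at an unadjusted p under 0.05, all lower), with a median log2 fold change of -1.01. At that unadjusted threshold 9.87% of all tested genes were lower and 3.70% higher. Dpp4, the surface peptidase that trims Cxcl12 and other chemokines, measured 44.7 and 43.6 TPM in controls and 19.2, 25.0 and 19.0 TPM in knockout mice (log2 fold change -1.04, limma adjusted p 0.14). Ccrl2, a non-signalling receptor of the chemokine-like protein chemerin, was at 23.2 and 41.4 TPM in controls and 12.8, 13.6 and 11.1 TPM in knockout mice (log2 fold change -1.25, limma adjusted p 0.187). Pf4, the platelet and macrophage chemokine, was at 74.2 and 80.4 TPM in controls and 54.5, 32.1 and 33.0 TPM in knockout mice (log2 fold change -0.98, limma adjusted p 0.214). With knockout mouse 1 left out, Pf4 and Dpp4 passed as lower and Mif, a cytokine that also binds Cxcr4, passed as higher (limma adjusted p 0.014, 0.0293 and 0.014). Of all genes 2.63% passed as lower and 5.35% as higher in that fit.

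Among 18 signalling partners of chemokine receptors 0 passed in limma, and the median was -0.15. At an unadjusted p under 0.05, 3 were higher and 2 lower, where 3.70% and 9.87% of all tested genes were. Rgs2, an inhibitor of G protein signalling, measured 63.1 and 68.3 TPM in controls and 155, 150.2 and 99.7 TPM in knockout mice, above both controls in all 3 (log2 fold change 1.00, limma adjusted p 0.192). Arrb1 and Arrb2 are the beta-arrestins that bind and turn off receptors. Arrb1 was higher, at 30.4 and 28.9 TPM in controls and 33.0, 60.2 and 57.6 TPM in knockout mice (log2 fold change 0.69, limma adjusted p 0.354). Arrb2 was lower, at 54.0 and 53.2 TPM in the controls and 43.0, 40.3 and 35.3 TPM in the knockout mice (log2 fold change -0.43, limma adjusted p 0.343). The G protein beta subunit Gnb1 was higher, at 187 and 185 TPM in controls and 211, 303 and 329 TPM in knockout mice (log2 fold change 0.57, limma adjusted p 0.352). In the fit that omits knockout mouse 1, 2 of the list passed as higher (Arrb1 and Gnb1) and 3 as lower (Rgs1, Rac2 and Dock2), with limma adjusted p of 0.0172 to 0.0441. There 5.35% of all genes passed as higher and 2.63% as lower.

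Of 8 regulators of chemokine genes 0 passed in limma, with a median of -0.29. At an unadjusted p under 0.05, 2 were lower, where 9.87% of all tested genes were. These 2, Tnfaip3 and Nfkbia, are targets and inhibitors of NF-kappaB. Tnfaip3 measured 71.7 and 93.0 TPM in controls and 47.1, 30.2 and 15.1 TPM in knockout mice (log2 fold change -1.52, limma adjusted p 0.237), and it alone of the list passed without knockout mouse 1, at -1.88 (limma adjusted p 0.0296). Nfkbia was at 275 and 396 TPM in controls and 219, 203 and 201 TPM in knockout mice, with control mouse 3 highest as for Cxcl1, Cxcl2 and Ccl2 (log2 fold change -0.67, limma adjusted p 0.263). The NF-kappaB subunit gene Rela overlapped between the groups, at 49.0 and 46.6 TPM in controls and 40.8, 47.9 and 44.1 TPM in knockout mice, and Irf1, an interferon-induced factor, had the third smallest p of the list at 62.2 and 74.3 TPM in controls and 62.7, 53.8 and 39.2 TPM in knockout mice (log2 fold change -0.41, limma adjusted p 0.456).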

How the data were processed

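Bulk RNA-seq libraries came from sorted stromal cells of the oviduct, 2 from control mice and 3 from mice labelled Esr1 conditional knockout, with a low-input SMARTer kit per the labels' protocols. The authors deposited TPM per gene, scaled to 1000000 per library, aligned with STAR per the name of the deposited table and against mm10 per the submitters' processing notes. The counter, annotation and filters are not given in the sources used here.

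Values were converted to log2(TPM + 1), which understates changes of low genes, and modelled in R 4.3.3 by limma 3.58.1 (mean-variance trend, genotype only, two-sided) over the 19292 genes with at least 1 TPM in at least 2 libraries. P-values were adjusted over all of them by the Benjamini-Hochberg method at 0.05, and the fit was tested on simulated data. An exact permutation test over 10 assignments was added for 6 members. Within a group the labels tell the mice apart only by their numbers. The limma p-values set each difference between groups against the spread between these libraries, 1 per mouse, with that spread estimated in part across genes. Members, lists and alternatives were chosen with earlier results of these data known. Named are members past the threshold, with an unadjusted p under 0.05 or a mean of at least 5 TPM, a set picked by role, and the 3 genes with the smallest p of each neighbouring list. The values of 1 member are not reported here, although counts over the members include it. Depth was estimated from the steps of low values with Python 3.11.15. RefSeq (GRCm38.p6) gave positions for all 61 members and promoter windows for 46, and GENCODE M21 transcript matches.

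Alternatives were another pseudocount (0.1), no filter, 3 scalings, limma's library weights, a block for mouse number and leaving out each library. Deviations of same-numbered mice from their group means correlated at -0.060 and -0.072 across genes. The control mice deviate from their own mean by exact opposites, so these correlations are not independent checks. They cannot decide whether same-numbered mice share more than a number.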

Additional observations from a re-analysis of the deposited data

How the results depend on the processing

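At an adjusted p under 0.05 in limma the 2 higher and 3 lower genes of all tested became 0 and 0 with a pseudocount of 0.1, 260 and 396 with library weights, and ranged from 0 to 1022 and 0 to 502 when 1 library was left out. Higher genes were 1 without a filter and 0 after quantile normalization, and lower genes 6 with median-of-ratios scaling and 5 without Rpph1 and Rn45s. Called members were 0 higher and 0 lower, 10 lower with library weights, and 0 to 1 higher and 0 to 11 lower with 1 library left out. At an unadjusted p those left-out fits gave 0 to 2 higher and 9 to 21 lower members, and quantile normalization gave 2 higher. The cause was not tested. With the mouse number as a replicate block, which leaves knockout mouse 1 without a partner, 1165 genes were called higher and 693 lower, among them 1 member higher and 16 lower, with 2 members higher at an unadjusted p. The block also gave a median of 0.038 for epithelial-type members and log2 fold changes of -0.016 for Cxcl12, -0.27 for Cxcr3 and -0.020 for Cxcr6. Numbers were not shown to pair the mice.

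Median log2 fold changes with 1 library left out ranged from -0.91 to 0.11 for stromal-type, -0.88 to -0.31 for interferon-inducible and -0.20 to 0.038 for epithelial-type members, and from -0.20 to -0.089 for signalling partners. The median of all members kept its sign, at -0.63 to -0.37. The leukocyte-type median did too, at -0.95 to -0.46. Interferon-inducible members had -1.06 with a pseudocount of 0.1 and -0.0089 after quantile normalization. Epithelial-type members had -0.033 without a filter, -0.065 after quantile normalization and -0.076 with library weights. Signalling partners had -0.20 after quantile normalization, -0.21 with median-of-ratios scaling and -0.21 without Rpph1 and Rn45s.

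Signs turned for Ackr2 (0.24 after quantile normalization, 0.017 with weights), Cxcl9 (0.23 after quantile normalization), Cxcr3 (-0.0062 with weights) and Cx3cl1 (-0.033 after quantile normalization, -0.013 with median-of-ratios scaling, -0.011 without Rpph1 and Rn45s). With 1 library left out the ranges crossed 0 for Cxcl12 (-0.016 to 0.72), Ackr3 (-0.80 to 0.52), Cxcl13 (-0.91 to 0.11), Cxcr3 (-0.27 to 0.43), Cxcr6 (-0.020 to 1.39), Ackr1 (-0.072 to 0.65), Ccl27a (-0.014 to 0.19) and Cx3cl1 (-0.28 to 0.37). Cxcl2 stayed at -3.22 to -2.26 and Ackr4 at 0.73 to 1.48. Of the alternative values of single named members, 383 kept their side of the threshold and their sign, 38 newly passed and 21 turned sign. Levels relative to Ptprc were an alternative chosen after seeing the data. By it 7 members instead of 19 and 6 leukocyte-type members instead of 13 were lower without overlap. The share of all tested genes fell as well, to 3.47% relative to Ptprc from 21.9% in plain TPM, so the smaller counts stand beside a smaller background. In plain TPM, leaving out 1 library gave 14 to 20 leukocyte-type members. That count can only stay or rise with fewer libraries, so it does not show stability. Fits without a control keep 1, which is assumed to vary like the knockout mice. Reads behind 1 TPM limit members under about 1 TPM, such as Ccl19 and Cxcl5.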

Other observations

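The make-up of the chemokine ligand RNA can be given as each gene's share of the summed TPM of all 39 ligands in a library, as a description with no test. Cxcl12 made up 9.04% and 8.91% of it in control mice 2 and 3, against 30.1%, 15.7% and 26.6% in the 3 knockout mice. Cxcl2 made up 9.67% and 15.4% in the controls and 2.82%, 3.83% and 3.86% in the knockout mice. For Cxcl14 the shares were 5.64% and 3.56% in the controls and 6.57%, 15.4% and 11.9% in the knockout mice. The groups did not overlap in any of these 3 shares, which were chosen after their values were seen. They were not alone in this among the 39 ligands. The others without overlap in their shares were Cx3cl1, Ccl27a, Ccl28 and Cxcl5 upward and Cxcl1, Ccl8, Ccl9 and Ccl24 downward. For Cx3cl1 the shares were 1.16% and 1.52% in the controls and 1.84%, 3.59% and 2.97% in the knockout mice. In TPM, Cxcl12, Cxcl14, Cx3cl1, Ccl27a and Ccl28 all overlapped, while Cxcl5, under 1 TPM throughout, did not. A share also moves with the other ligands, and the sum over all 39 was 1298 and 1585 TPM in the controls and 1010.3, 694 and 557 TPM in the knockout mice. The ratio of Cxcl12 to Cxcl2, which uses no total, was 0.935 and 0.578 in the controls and 10.7, 4.11 and 6.90 in the knockout mice. Cxcl2 was chosen for it with its values known and had the lowest log2 fold change of the tested members, -2.74. The gap in this ratio therefore says nothing further about Cxcl12.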
